A study of Homo sapiens with 6 samples.

Results

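The 7 CDK inhibitor genes CDKN1A, CDKN1B, CDKN1C, CDKN2A, CDKN2B, CDKN2C and CDKN2D were followed through RNA-seq of C4-2, an established line of human prostate cancer cells that descends from LNCaP. They were taken by name from the 28503 lines of the expression table, and all 7 were found, 3 of the CIP/KIP family and 4 of the INK4 family. All cells were C4-2 at passages 10 to 15. They were given GSK126, astemizole, lentivirus with an EZH2 shRNA, lentivirus with a scramble shRNA, or vehicle. The knockdown has 2 libraries, 1 for each of 2 hairpins, and every other condition has 1. GSK126 inhibits the methyltransferase activity of EZH2, the catalytic subunit of Polycomb repressive complex 2, and astemizole is an antihistamine reported to disturb the contact of EZH2 with its partner EED. The table has 1 column for each compound and control and a single column for the EZH2 knockdown, set by the authors. The sources used here do not give doses or treatment times. Each value is an FPKM, a fragment number divided by transcript length and library size, so that levels of different genes can be set side by side. No condition has a second value: no difference has a replicate check, no test is given, and n is 1 throughout.

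CDK inhibitors stop cells from passing through the division cycle. INK4 proteins bind CDK4 and CDK6 and keep cyclin D from activating them, while CIP/KIP proteins bind complexes of cyclins with CDK2 and other kinases. With the kinases inhibited, the RB family stays bound to E2F factors and genes of DNA replication are not switched on. The locus on chromosome 9 that holds CDKN2A and CDKN2B is a textbook target of Polycomb repression.

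The luminal prostate markers were present in all columns: all 10 listed, KLK3 among them, stood above the filter of 1 FPKM in each. EZH2 itself was at 17.5 FPKM with GSK126, 9.48 with astemizole, 3.35 in the knockdown column, 24.6 with scramble shRNA and 26.5 with vehicle. Between the control columns, scramble shRNA and vehicle, 89.9% of the 12923 genes tested (those that reached 1 FPKM in any column) differed by less than 0.5 on the log2 scale. Ratios are log2 of FPKM + 1 in a treated column over FPKM + 1 in a control, a scale that understates differences of low genes. Markers of liver were not evenly spread: the 10 listed summed to 185 FPKM with GSK126, 5.69 with astemizole, 3.27 with the knockdown, 2.09 with scramble shRNA and 21.5 with vehicle. Of these 10, 0 stood at 0 with GSK126 or vehicle, 3 did with astemizole, 1 with the knockdown and 4 with scramble shRNA. The 5 blood markers summed to 8.07 FPKM with GSK126, 7.57 of it from LYZ, and to 1.14 with vehicle. In bulk RNA, fewer cells that express a gene and less of its RNA per cell cannot be told apart.

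CDKN1A was the most abundant inhibitor transcript in 4 of the 5 columns, with CDKN1B next, and CDKN2A followed them in all 5. In the scramble shRNA column CDKN1B, at 49.7 FPKM, stood just above CDKN1A, at 48.0 FPKM. With vehicle the order went on with CDKN2C at 25.8, CDKN2D at 17.6, CDKN1C at 2.68 and CDKN2B at 0.282 FPKM. CDKN2B was the lowest member in 4 columns, but the fifth with astemizole, at 10.5 FPKM. There it lay between CDKN2C at 10.6 and CDKN2D at 9.91 FPKM, values too close to be ordered without replicates.

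**Figure D1:**
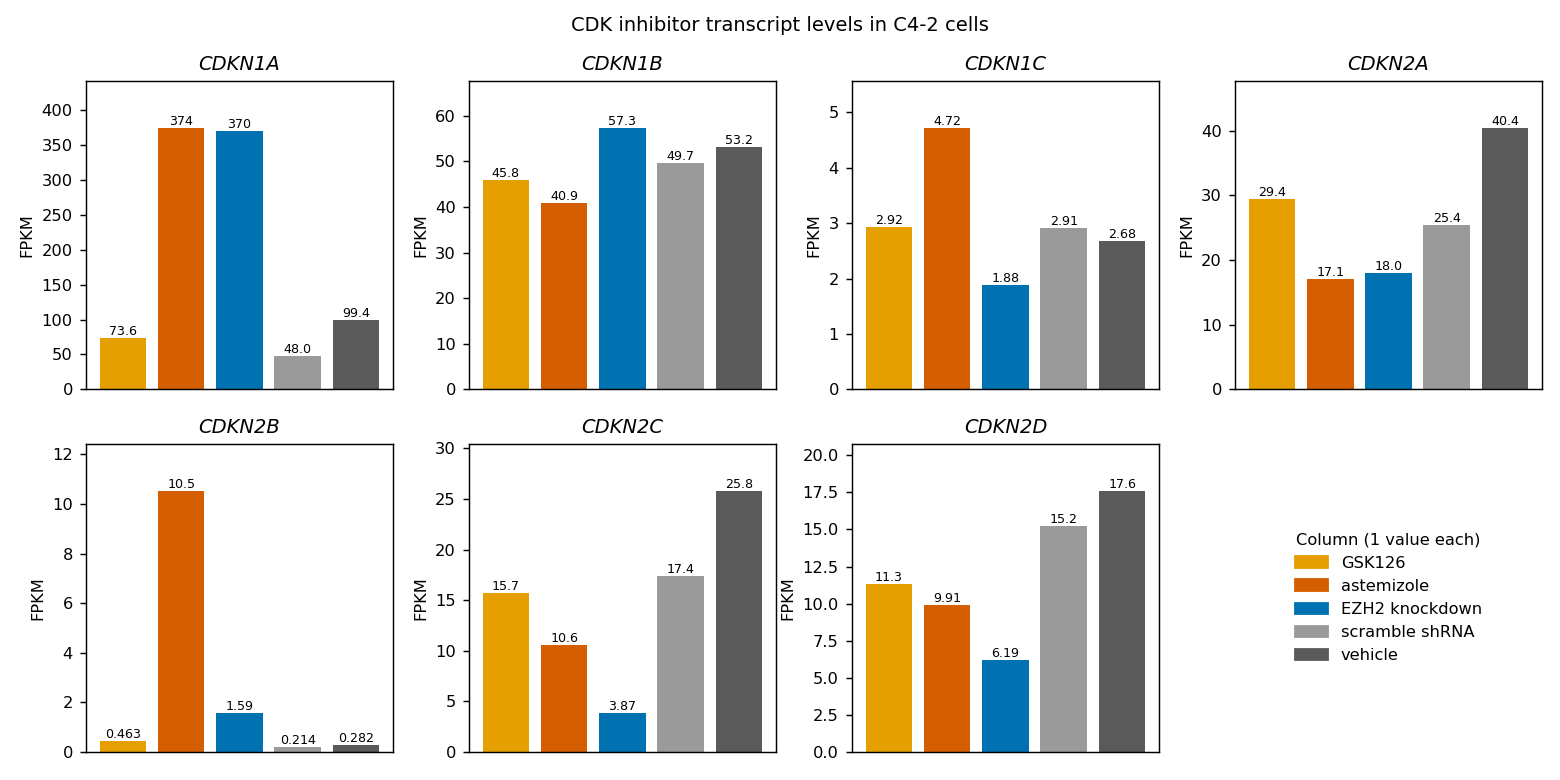
FPKM of each CDK inhibitor (vertical axes from 0, a separate scale per gene) in the 5 columns, 1 value per bar and no error bars because there are no replicates. CDKN1A stands at 374 FPKM with astemizole and 370 in the knockdown column, and CDKN2B at 10.5 FPKM with astemizole, while CDKN2C is lowest in the knockdown column at 3.87 FPKM.

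CDKN1A encodes p21, which binds cyclin-CDK2 complexes and the polymerase clamp PCNA. It stood at 73.6 FPKM with GSK126, 374 with astemizole, 370 with the knockdown, 48.0 with scramble shRNA and 99.4 with vehicle. Astemizole and the knockdown were thus close to each other and far above the other 3 columns. The log2 ratio was 1.90 for astemizole against vehicle and 2.92 for the knockdown against scramble shRNA, where it was the fifth highest of 12923 genes. The controls differed as well: scramble shRNA was 2.07-fold below vehicle, a log2 ratio of -1.03. Against vehicle the knockdown had 1.88, and against scramble shRNA astemizole had 2.94. For GSK126 the direction depended on the control, at -0.43 against vehicle and 0.60 against scramble shRNA.

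The promoter window of CDKN1A is shown because its transcript differed most among the abundant members, beside that of CDKN2B, the other member higher with astemizole and in the knockdown column. Both come from RefSeq on GRCh38.p14, 250 bases before to 50 after a start site, 5′ to 3′ on the gene's strand. Capitals mark GGGCGG or its reverse complement CCGCCC, the core of the GC box recognised by SP1.
CDKN1A, chr6:36678464-36678763, + strand: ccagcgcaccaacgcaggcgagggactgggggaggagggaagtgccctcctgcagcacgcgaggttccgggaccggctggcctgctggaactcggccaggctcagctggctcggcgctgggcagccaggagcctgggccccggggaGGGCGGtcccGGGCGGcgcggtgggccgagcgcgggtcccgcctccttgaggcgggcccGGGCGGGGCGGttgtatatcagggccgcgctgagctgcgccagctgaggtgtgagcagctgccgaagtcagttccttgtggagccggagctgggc
CDKN2B, chr9:22009256-22009555, - strand: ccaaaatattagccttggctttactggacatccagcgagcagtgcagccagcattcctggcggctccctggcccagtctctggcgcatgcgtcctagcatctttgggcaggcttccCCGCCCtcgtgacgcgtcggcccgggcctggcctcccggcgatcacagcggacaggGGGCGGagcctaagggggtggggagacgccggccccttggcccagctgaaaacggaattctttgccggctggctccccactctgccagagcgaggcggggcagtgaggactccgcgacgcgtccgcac
The CDKN1A window holds 4 matches, at -104, -94, -45 and -40 from the start site, the last pair overlapping by 1 base. The CDKN2B window holds 2, at -134 and -78. Of 35116 RefSeq promoter windows of the same length, 45.0% hold at least 1 match on either strand, 26.7% hold 2 or more and 9.06% hold 4 or more. The CDKN1A window holds 29 CpG dinucleotides and the CDKN2B window 25, against a median of 14 over all windows. SP1 stood at 8.66 FPKM with GSK126, 6.97 with astemizole, 9.41 with the knockdown, 10.5 with scramble shRNA and 7.97 with vehicle. A match is a description of the letters and shows no binding.

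CDKN1B encodes p27, an inhibitor of cyclin E-CDK2 that is mainly set through protein breakdown. Its transcript was the flattest of the 7, at 45.8 FPKM with GSK126, 40.9 with astemizole, 57.3 with the knockdown, 49.7 with scramble shRNA and 53.2 with vehicle. The highest and lowest columns differed 1.40-fold. Log2 ratios to the matched control were -0.21 with GSK126, -0.37 with astemizole and 0.20 with the knockdown, and the GSK126 value was 0.00 after rescaling to TPM, in which each column sums to the same total.

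CDKN1C encodes p57, an imprinted inhibitor best known from development. It was low throughout, at 2.92 FPKM with GSK126, 4.72 with astemizole, 1.88 with the knockdown, 2.91 with scramble shRNA and 2.68 with vehicle. Astemizole and the knockdown lay on opposite sides of the controls, with log2 ratios of 0.64 for astemizole against vehicle and -0.44 for the knockdown against scramble shRNA. The knockdown was the lowest column and astemizole the highest, and neither ratio passed 2-fold.

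CDKN2B encodes p15, an INK4 protein known as a target of TGF-beta signalling. It was at 0.463 FPKM with GSK126, 10.5 with astemizole, 1.59 with the knockdown, 0.214 with scramble shRNA and 0.282 with vehicle. The log2 ratio of astemizole to vehicle was 3.17, the eighth highest of all genes tested, and without the pseudocount the fold was 37.3. For the knockdown against scramble shRNA the log2 ratio was 1.10 and the fold without pseudocount 7.45, so the size depends on how low values are treated. GSK126 gave 0.19. CDKN2B passed the filter of 1 FPKM only through the astemizole and knockdown columns. A gene this low in both controls could enter the tested set only by being higher in a treated column, so its place among the genes tested is a description.

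CDKN2A lies beside CDKN2B and gives rise to p16, an INK4 inhibitor of CDK4 and CDK6, and, from a separate first exon, p14ARF, which binds MDM2. The table has 1 value for the gene, so these products cannot be told apart. It stood at 29.4 FPKM with GSK126, 17.1 with astemizole, 18.0 with the knockdown, 25.4 with scramble shRNA and 40.4 with vehicle. The vehicle column was the highest and the astemizole column the lowest. The log2 ratio was -1.19 for astemizole against vehicle and -0.47 for the knockdown against scramble shRNA. With the other control the astemizole value was -0.55 and the knockdown value -1.12, so which of them passed 2-fold depended on the control column.

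RefSeq gives CDKN2A windows at both of its start sites, and they are shown because they feed the same value in the table. The window with the higher coordinates lies at the first exon of p14ARF and the other at that of p16. Build, strand, orientation and capitals are as above.
CDKN2A p16 start, chr9:21974808-21975107, - strand: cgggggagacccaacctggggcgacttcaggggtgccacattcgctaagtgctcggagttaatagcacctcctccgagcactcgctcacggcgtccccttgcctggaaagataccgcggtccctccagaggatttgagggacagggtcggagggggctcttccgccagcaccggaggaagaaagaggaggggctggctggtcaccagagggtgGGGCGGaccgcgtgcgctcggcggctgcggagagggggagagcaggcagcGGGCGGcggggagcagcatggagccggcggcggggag
CDKN2A p14ARF start, chr9:21995275-21995574, - strand: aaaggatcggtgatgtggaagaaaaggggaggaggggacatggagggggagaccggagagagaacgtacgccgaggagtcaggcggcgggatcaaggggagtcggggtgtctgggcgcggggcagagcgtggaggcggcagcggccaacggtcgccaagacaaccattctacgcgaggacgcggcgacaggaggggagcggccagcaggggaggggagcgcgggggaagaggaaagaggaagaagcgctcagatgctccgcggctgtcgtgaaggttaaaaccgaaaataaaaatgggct
The p16 window holds 2 matches to the GC box letters, at -37 and 14, and the p14ARF window holds 0. In GENCODE release 29, 341 exonic bases of CDKN2A, 7.88% of them, are shared with CDKN2B-AS1 on the opposite strand, and CDKN2B shares 0 exonic bases with another gene. CDKN1A shares 146 exonic bases, 4.79% of its own, with DINOL on the opposite strand, for which no FPKM was found under that name. CDKN2B-AS1, a long noncoding RNA known by the name ANRIL, was listed at 0.199 FPKM with GSK126, 0.0660 with astemizole, 0.0295 with the knockdown, 0.458 with scramble shRNA and 0.380 with vehicle. These levels are too low to rank the columns. The sources used here do not say whether counting used the strand, so reads from the shared bases of overlapping genes cannot be told apart. MTAP, the gene on the other side of CDKN2A, was at 12.6 FPKM with GSK126, 9.06 with astemizole, 13.4 with the knockdown, 13.9 with scramble shRNA and 14.2 with vehicle.

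CDKN2C encodes p18 and was at 15.7 FPKM with GSK126, 10.6 with astemizole, 3.87 with the knockdown, 17.4 with scramble shRNA and 25.8 with vehicle. Each treated column was below both controls, the knockdown most. Log2 ratios to the matched control were -0.68 with GSK126, -1.21 with astemizole and -1.92 with the knockdown. Against the other control they were -0.14 with GSK126, -0.67 with astemizole and -2.46 with the knockdown, and the astemizole value thus lay on either side of 2-fold. RefSeq lists 3 start sites for the gene, whose windows hold 0, 6 and 1 matches to the GC box letters and 8, 37 and 11 CpG dinucleotides in order of position, and 2.86% of all windows hold 6 matches or more.

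CDKN2D encodes p19, an INK4 protein unrelated to the mouse ARF product of the same short name. It was at 11.3 FPKM with GSK126, 9.91 with astemizole, 6.19 with the knockdown, 15.2 with scramble shRNA and 17.6 with vehicle. All 3 treated columns were again below both controls. Log2 ratios to the matched control were -0.60 with GSK126, -0.77 with astemizole and -1.17 with the knockdown, and the knockdown against vehicle had -1.37.

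With GSK126 all 7 inhibitors stayed within 2-fold of vehicle. No member was at least 2-fold higher than vehicle, where 1.05% of all genes were, and no member was 2-fold lower, where 0.952% were, so that counts of 0 among 7 genes are near the background. Their 7 ratios ran from -0.68 for CDKN2C to 0.19 for CDKN2B, with a median of -0.43 beside -0.04 over all genes. Against scramble shRNA the median was 0.00 beside 0.05, again with no member past 2-fold in either direction (background 1.52% higher and 0.395% lower). Rescaling to TPM, which moved the median of all genes from -0.04 to 0.15, changed the split of called genes from 136 higher and 123 lower (52.5% higher) to 285 and 70 (80.3% higher), and 3 of 4 INK4 members stayed below vehicle, CDKN2C at -0.48. The liver and blood markers given above moved with the GSK126 and vehicle columns, and their part in these ratios was not tested.

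Astemizole parted the family. CDKN1A and CDKN2B were at least 2-fold higher than vehicle, 2 of 7 members, where 3.53% of all genes were. CDKN2B is in the tested set only through treated columns, so that share is no fair background for it. Of 155 genes tested that were under 0.5 FPKM in both control columns, 87 stood at 1 FPKM or more with astemizole and 4 at 10 or more. CDKN2B is counted in both. All 155 entered the tested set through a treated column, so these counts are no fair background either. CDKN2A and CDKN2C were at least 2-fold lower, also 2 of 7, where 5.49% of all genes were. The median of the 7 was -0.37 beside -0.06 over all genes. Against scramble shRNA the same members were higher (background 4.57%), and 0 of 7 were 2-fold lower (background 3.9%).

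In the knockdown column members also lay past 2-fold on both sides. CDKN1A and CDKN2B were at least 2-fold above scramble shRNA, 2 of 7, where 1.93% of all genes were, and CDKN2C and CDKN2D were at least 2-fold below it, 2 of 7, where 5.11% were. With the pseudocount of 1 FPKM CDKN2B passed narrowly, at a log2 ratio of 1.10, from 1.59 FPKM against 0.214 with scramble shRNA. With 0.1 FPKM its log2 ratio was 2.43. The share of all genes is again no fair background for CDKN2B. Of the 155 genes tested under 0.5 FPKM in both control columns, 38 stood at 1 FPKM or more with the knockdown, CDKN2B among them. The median of the 7 was -0.44 beside 0.03 over all genes. CDKN2C was thus past 2-fold with astemizole and with the knockdown, and CDKN2D, at -0.77 and -1.17, lay on either side of that limit, a difference that was not tested. Against vehicle CDKN1A and CDKN2B were still 2-fold higher (background 1.93%), and CDKN2A joined the lower members, making 3 of 7 (background 7.25%). Astemizole against vehicle and the knockdown against scramble shRNA share no column. They do share columns with the crossed comparisons.

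Scramble shRNA against vehicle compares the controls, which differ by the lentivirus and its scramble shRNA. CDKN1A was 2-fold lower there, 1 of 7 members, where 0.851% of all genes were, and no member was 2-fold higher, where 0.17% were. CDKN2A had -0.65 and CDKN2C -0.54, while CDKN1B, CDKN1C, CDKN2B and CDKN2D lay between -0.20 and 0.09, signs that TPM rescaling turned for CDKN1B (0.17) and CDKN2D (0.05) and centring for CDKN1B (0.01) and CDKN2B (0.03). The called genes split into 22 higher and 110 lower (16.7% higher), 84 and 82 (50.6% higher) after TPM rescaling, where all genes had a median of 0.13, and 33 and 75 (30.6% higher) after centring on the unscaled median of -0.11. CDKN1A then missed 2-fold, at -0.77 after TPM rescaling and -0.93 after centring. Whether the lentivirus or another difference in handling goes with this was not tested.

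**Figure D2:**
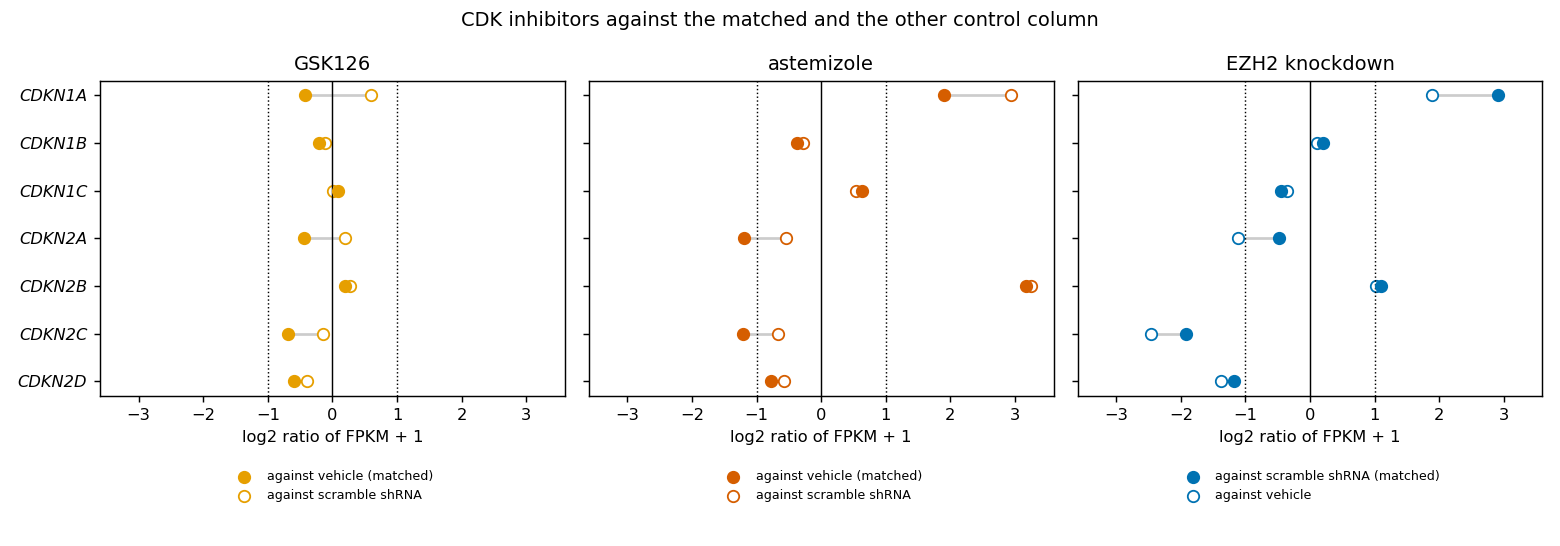
Log2 ratio of FPKM + 1 for each CDK inhibitor (rows) in the 3 treated columns (panels); filled points use the matched control, open points the other control, and dotted lines mark 2-fold. CDKN1A moves by 1.03 with the choice of control and changes side for GSK126, as CDKN2A does (-0.45 and 0.20). CDKN2B moves by 0.08, a shift held small by the added 1 FPKM. With 0.1 FPKM its log2 ratio of scramble shRNA to vehicle was -0.28.

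**Figure D3:**
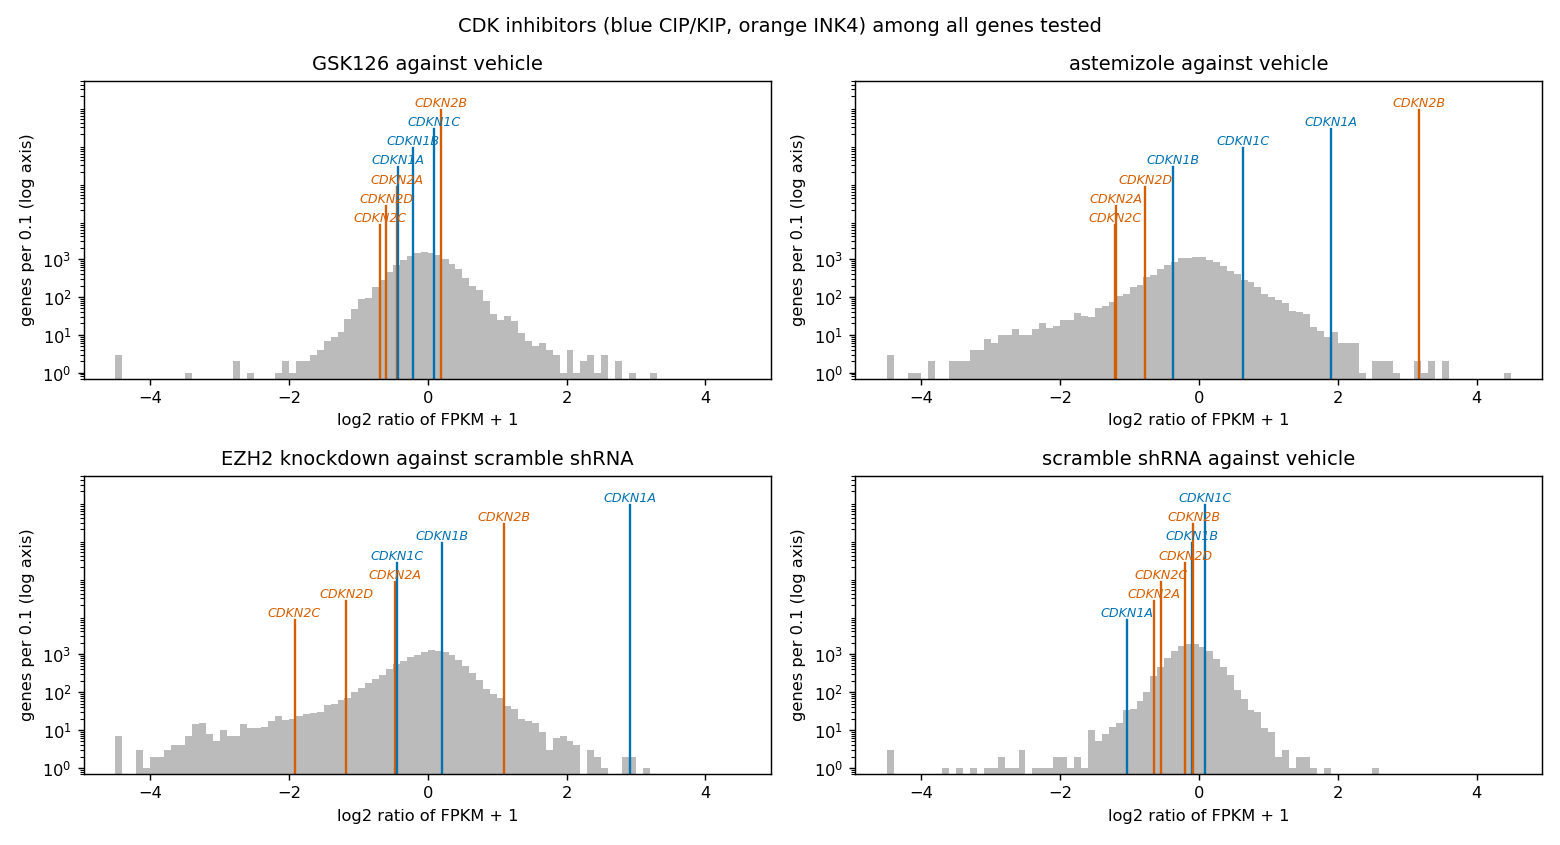
Histograms of the log2 ratio of FPKM + 1 over 12923 genes (vertical log axis, bins of 0.1, values beyond 4.5 in either direction placed in the end bins) in 4 comparisons, with lines for the CDK inhibitors whose heights only separate the names. CDKN1A and CDKN2B lie in the upper tail with astemizole, at 1.90 and 3.17, and the members with GSK126 lie between -0.68 and 0.19.

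Summed levels show how the balance of the families differed. The CIP/KIP genes summed to 122 FPKM with GSK126, 420 with astemizole, 429 with the knockdown, 101 with scramble shRNA and 155 with vehicle. The INK4 genes summed to 56.8, 48.1, 29.7, 58.3 and 84.1 FPKM in the same order of columns. The ratio of the sums, which does not depend on scaling between columns or on the choice of a control, was 2.15 with GSK126, 8.74 with astemizole, 14.4 with the knockdown, 1.73 with scramble shRNA and 1.85 with vehicle. GSK126 thus lay near the controls, which differed little from each other in this ratio, and astemizole and the knockdown lay well above. CDKN1A made up 80.0% of the 7 with astemizole and 80.6% with the knockdown, against 41.1% with GSK126, 30.2% with scramble shRNA and 41.5% with vehicle. Within the INK4 sum, CDKN2B held 21.9% with astemizole and 5.36% with the knockdown, and 0.814% with GSK126, 0.367% with scramble shRNA and 0.336% with vehicle. CDKN2A, whose value cannot be split into p16 and p14ARF, held 35.5% with astemizole and 60.8% with the knockdown. It held 51.7% with GSK126, 43.6% with scramble shRNA and 48.0% with vehicle.

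The kinases that the inhibitors bind gave a second scale within each column. CDKN1A stood at 2.64 FPKM per FPKM of CDK2 with GSK126, 17.0 with astemizole, 24.2 with the knockdown, 1.01 with scramble shRNA and 1.97 with vehicle. CDKN1B, with a near-constant level of its own, stood at 1.64, 1.86, 3.75, 1.04 and 1.05 FPKM per FPKM of CDK2 in the same order, because CDK2 was lower in the treated columns, at 27.9, 22.0 and 15.3 FPKM against 47.8 with scramble shRNA and 50.5 with vehicle. The INK4 sum per FPKM of CDK4 was lowest with the knockdown and with astemizole, at 0.536 with GSK126, 0.392 with astemizole, 0.334 with the knockdown, 0.508 with scramble shRNA and 0.559 with vehicle.

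**Figure D4:**
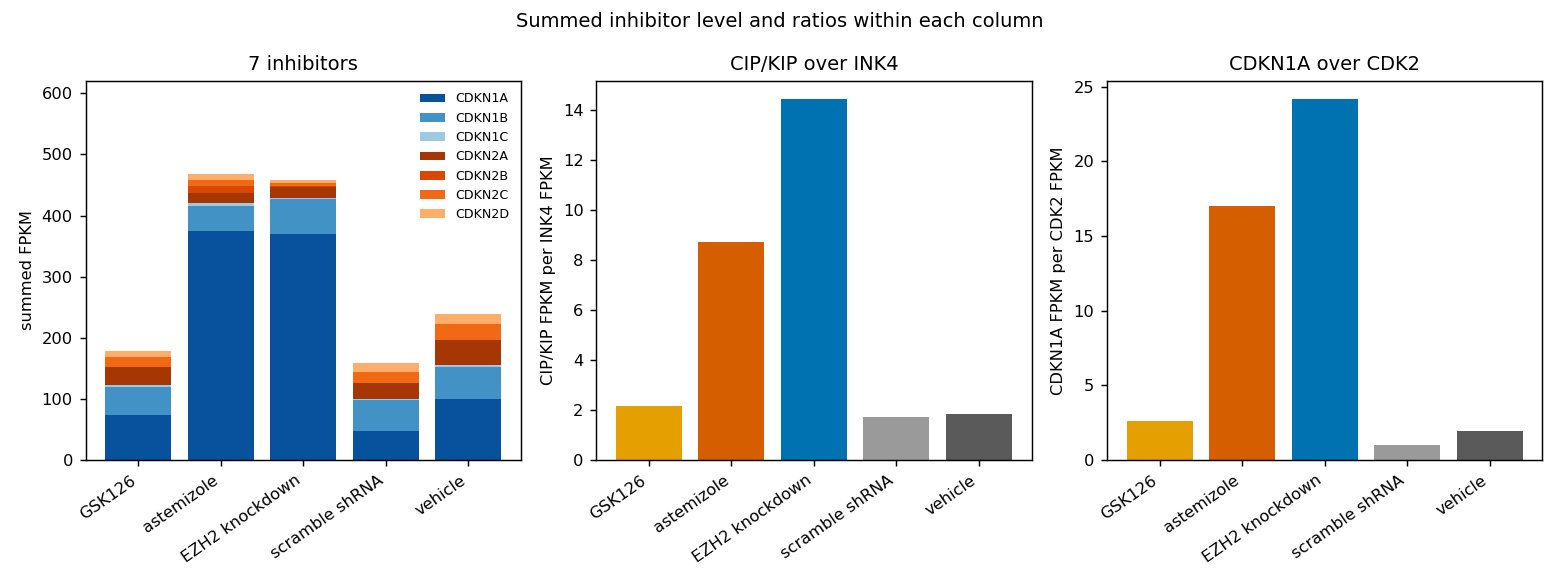
Left, summed FPKM of the 7 inhibitors stacked by gene; middle, CIP/KIP FPKM per INK4 FPKM; right, CDKN1A FPKM per CDK2 FPKM, each for the 5 columns with 1 value per bar. The ratio of the families is 8.74 with astemizole and 14.4 with the knockdown, against 1.73 with scramble shRNA and 1.85 with vehicle.

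The gene lists are read beside all genes, of which 0.952% were at least 2-fold lower with GSK126, 5.49% with astemizole and 5.11% with the knockdown, and 1.05%, 3.53% and 1.93% higher in the same order. Of 16 CDKs and cyclins 14 passed the filter, and of these 1 was at least 2-fold lower with GSK126, 6 with astemizole and 7 with the knockdown, and 0 were higher in any of the 3. Their median log2 ratio was -0.57 with GSK126, -0.79 with astemizole and -0.87 with the knockdown, beside -0.04, -0.06 and 0.03 over all genes. CDK1, the mitotic kinase, was at a log2 ratio of -1.06 for GSK126, -2.81 for astemizole and -3.20 for the knockdown. The D cyclin gene CCND1 behaved apart, at 128 FPKM with GSK126, 73.2 with astemizole, 238 with the knockdown, 172 with scramble shRNA and 114 with vehicle. CDK4, an INK4 partner, had 106 FPKM with GSK126, 123 with astemizole, 89.0 in the knockdown column, 115 with scramble shRNA and 150 with vehicle, and CDK6 was at 1.17 FPKM or less in every column. Of 18 genes of the RB family, E2F factors and their partners, the number lower by 2-fold was 1 with GSK126, 5 with astemizole and 6 with the knockdown, where 0.952%, 5.49% and 5.11% of all genes were. None was 2-fold higher, a count near the background for 18 genes. E2F1, an activator of replication genes, was at -1.07 for GSK126, -1.71 for astemizole and -3.19 for the knockdown. RB1 itself was at 20.2 FPKM with GSK126, 12.8 with astemizole, 21.3 with the knockdown, 22.0 with scramble shRNA and 18.2 with vehicle.

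Genes of cell division, which E2F factors and their partners switch on, gave the largest median differences of the lists described. Of 24, 7 were at least 2-fold lower with GSK126 (0.952% of all genes) and all 24 with astemizole (5.49%) and with the knockdown (5.11%), with medians of -0.92, -2.24 and -3.13 beside -0.04, -0.06 and 0.03 over all genes. MYBL2, a regulator of mitotic genes, had -4.14 with the knockdown, and PCNA, the clamp that p21 binds, -1.13 with GSK126. A list of 16 genes held parts of ubiquitin ligases that act on inhibitor proteins and related genes. The number lower by 2-fold was 1 with GSK126, 4 with astemizole and 5 with the knockdown, where 0.952%, 5.49% and 5.11% of all genes were. None was higher. CDC20, lower with astemizole (-3.35) and the knockdown (-3.80), is also in the cell division list. The median of the 16 was -0.16 with GSK126, -0.18 with astemizole and 0.02 with the knockdown, beside -0.04, -0.06 and 0.03 over all genes. SKP2, which recognises p27, was at 14.1 FPKM with GSK126, 8.003 with astemizole, 6.62 with the knockdown, 23.1 with scramble shRNA and 24.4 with vehicle, and its cofactor CKS1B at 78.5, 46.1, 25.2, 117 and 189 FPKM.

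Of 24 transcription factors known to act on the inhibitor genes 20 passed the filter, and only ID1 of them passed 2-fold against the matched controls, lower with GSK126 and higher with astemizole and the knockdown. Counts of 0 or 1 in 20 are close to the shares of all genes given above. ID1, an inhibitor of basic helix-loop-helix factors reported to repress CDKN2A, was at 4.49 FPKM with GSK126, 53.5 with astemizole, 36.9 with the knockdown, 4.22 with scramble shRNA and 11.0 with vehicle. MYC, a repressor of CDKN1A and CDKN2B, was at a log2 ratio of -0.26 for GSK126, -0.88 for astemizole and 0.02 for the knockdown, and FOXO3, an activator of CDKN1B, had 0.71, 0.92 and 0.25 in the same order. SMAD3, which carries TGF-beta signals to CDKN2B, was at 1.35 FPKM with GSK126, 1.70 with astemizole, 1.15 with the knockdown, 0.884 with scramble shRNA and 0.865 with vehicle. Among 20 Polycomb subunits and related genes reported at the INK4 locus, 0 passed 2-fold with GSK126, 2 were lower with astemizole (EZH2 and RBBP7), and with the knockdown 3 were higher and 2 lower, EZH2, the targeted gene, among the lower ones. Of all genes 5.49% were lower with astemizole, and 1.93% were higher and 5.11% lower with the knockdown, so the counts of lower genes are close to the background. KDM6B, a demethylase that removes the Polycomb mark, was among the higher ones, at 25.7 FPKM with the knockdown against 7.40 with scramble shRNA. The others were JARID2, at 14.9 FPKM with the knockdown against 6.43 with scramble shRNA, and CBX6, at 36.5 against 17.6. BMI1, a repressor of CDKN2A, was at a log2 ratio of 0.41 for GSK126, -0.17 for astemizole and 0.33 for the knockdown.

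Of 26 chromosome neighbours of the inhibitor genes 17 passed the filter, and their counts past 2-fold were close to the background: 0 were higher in the matched comparisons (1.05%, 3.53% and 1.93% of all genes). With astemizole 1 was lower (5.49% of all genes), SRSF3 beside CDKN1A at -1.09, and with the knockdown 1 (5.11%), GPR19 beside CDKN1B at -1.39 and at 1.73 FPKM or less in every column. Of 16 genes linked to arrest and senescence 8 passed the filter, and IL6, IGFBP7 and MMP3 were listed at 0 in every column. None of the 8 passed 2-fold with GSK126, a count near the background (1.05% of all genes higher and 0.952% lower). With astemizole 1 was higher and 2 were lower, where 3.53% and 5.49% of all genes were. The counts were the same with the knockdown, where 1.93% and 5.11% of all genes were. Medians of the 8 were 0.22 with astemizole and 0.08 with the knockdown, beside -0.06 and 0.03 over all genes. GLB1, CCNG2, GAS6, BTG1 and BHLHE40 stayed within 2-fold in the matched comparisons. LMNB1, the lamin gene whose loss accompanies senescence, was at a log2 ratio of -0.99 for GSK126, -2.40 for astemizole and -2.12 for the knockdown, and IGFBP3 had 0.09, 2.26 and 1.56 in the same order. CDKN3, which encodes a phosphatase that acts on CDKs, had -0.89 with GSK126, -2.85 with astemizole and -2.92 with the knockdown.

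**Figure D5:**
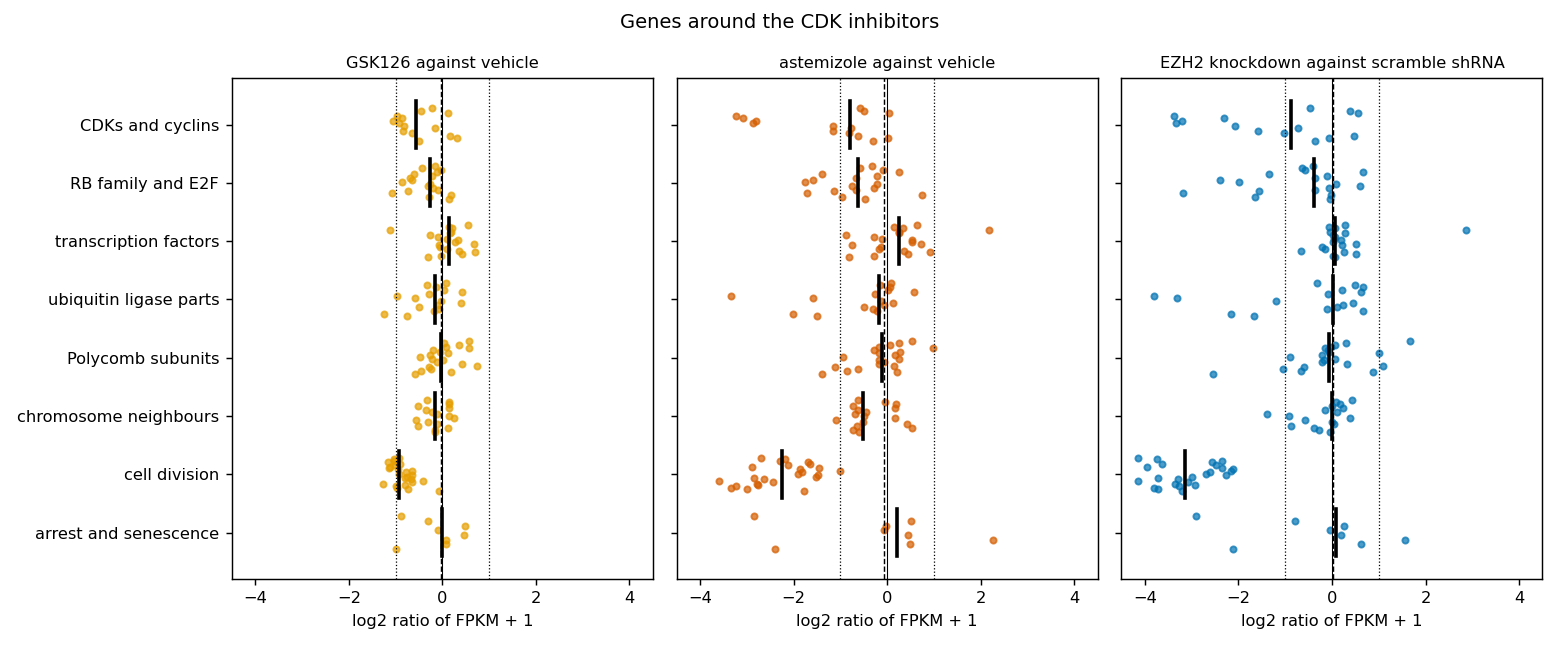
Log2 ratios of FPKM + 1 against the matched control for the measured genes of each list described (points), with the list median (thick bar), the median of all genes (dashed line) and 2-fold (dotted lines). The median of the cell division list is -0.92 with GSK126, -2.24 with astemizole and -3.13 with the knockdown.

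The pattern of each member over the 5 columns was compared with those of the other members and of all named genes that reached 5 FPKM in any column, by the Euclidean distance between profiles of log2 of FPKM + 1, each centred on its own mean. The shortest distances within the family were 0.65 between CDKN2A and CDKN2D and 0.86 between CDKN2C and CDKN2D, and the longest was 4.30 between CDKN1A and CDKN2C. CDKN2B was nearer to CDKN1A, at 1.70, than to CDKN2A beside it, at 3.53. The genes most like CDKN1A were ID3, at a distance of 0.40, ID1, at 0.72, and CLU, at 1.17. ID3 stood at 3.78 FPKM with GSK126, 33.4 with astemizole, 31.2 with the knockdown, 3.15 with scramble shRNA and 7.50 with vehicle. Those most like CDKN2B were CAMK1D, at 0.58, CYP1A2, at 0.73, and ID2, at 0.75. CDKN2C was closest to SKA2, a component of the spindle-kinetochore complex, at 0.11, C9orf40 at 0.16 and EMP2 at 0.19. CDKN2D was closest to PSIP1 at 0.13, FBXO45 at 0.16 and RPS6KA4 at 0.16, and CDKN2A to EMC9 at 0.14, HNRNPA1 at 0.17 and LDHB at 0.17. These distances rest on 5 columns with 1 value each and describe only those columns.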

How the data were processed

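Polyadenylated RNA of C4-2 cells was sequenced in 6 libraries. The deposited FPKM table was made by the authors with TopHat2, Cuffdiff and build hg19, per the submitters' processing notes, and FPKM is the unit named in the labels. The sources used here do not give versions, annotation, filters or how the knockdown column was made from its hairpins. Read totals are not in the table. Steps between low FPKM values gave the size of a single read relative to vehicle, which was 0.948 for GSK126, 1.05 for astemizole and 0.857 for scramble shRNA. Absolute depth is unknown, so no counting interval is given.

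Left out were 27 names turned into dates and 1723 short RNA genes. The filter kept 12923 genes, those that reached 1 FPKM in any column. Log2 ratios used a pseudocount of 1 FPKM, and 2-fold or more was counted. Alternatives were a pseudocount of 0.1 FPKM, no filter, both together, TPM rescaling, centring on the median, the other control column and a 1.5-fold limit. The steps were tested on simulated data, with less spread than between the controls here and changes planted only in genes at 5 FPKM or more. The simulation thus does not check calls of low genes. The members, the gene lists and the alternatives were chosen with earlier results of these data known. Named were the 7 members, up to 4 genes of each list with the largest ratios in each matched comparison, and the 3 genes nearest to each of the 5 members whose log2 values spanned at least 1. SP1, MTAP, CDKN2B-AS1, CCND1, CDK2, CDK4, CDK6, RB1, SMAD3, BMI1, CBX6 and some arrest genes are list members outside that rule, named after their values were seen. Some results are not reported here. Older symbols were matched through RefSeq synonyms. Promoter windows came from RefSeq on GRCh38.p14, which held 9 windows for 6 of the 7 members, and exon overlaps from GENCODE release 29 on GRCh38. The table was made on another build, so its genes are given no coordinates. Analyses ran in Python 3.11.15 with pandas 2.3.3 and numpy 2.4.6.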

Additional observations from a re-analysis of the deposited data

How the results depend on the processing

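The 28 log2 ratios of members in the matched comparisons and between the controls cannot change sign with another pseudocount or without a filter. Their size can differ with the pseudocount. With 0.1 FPKM, 23 of the 28 stayed within 0.20 of the main value, the median absolute log2 ratio between the controls. CDKN2B with astemizole went from 3.17 to 4.80. After TPM rescaling 3 of the 28 changed sign and after centring 2 did. With the other control column 2 of 21 did, CDKN1A and CDKN2A with GSK126. The count of members lower with astemizole was 2 (5.49% of all genes) and became 0 with the other control column (3.9%). Counts of lower members follow with the lower genes among all 12923 tested in brackets. Between scramble shRNA and vehicle they were 1 (110), 0 after TPM rescaling (82), 0 after centring (75) and 2 at 1.5-fold (603). With GSK126 the count was 0 (123) and became 2 at 1.5-fold (826). The log2 ratio of the summed CIP/KIP level was -0.34 with GSK126, 1.44 with astemizole and 2.09 with the knockdown, and 0.28, 2.06 and 1.47 with the other control column. That of the summed INK4 level was -0.57, -0.81 and -0.97, and -0.037, -0.28 and -1.50 with the other control column. After TPM rescaling these sums gave -0.13 and -0.35 with GSK126, and -0.36 and -0.26 for scramble shRNA against vehicle, from -0.62 and -0.53. Causes were not tested.

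Over all genes, 136 were higher and 123 lower with GSK126, 456 and 710 with astemizole, and 249 and 660 with the knockdown. Adding 0.1 FPKM in place of 1 gave 370 and 236, 750 and 1021, and 485 and 1003; without a filter as well they were 979 and 517, 1343 and 1534, and 875 and 1383. At 1.5-fold they were 637 and 826, 1351 and 1888, and 1057 and 1517. After TPM rescaling GSK126 had 285 and 70, and against the other control 197 and 51. No paired analysis was possible because each condition has 1 value, and no replicate could be left out. CDKN2B, CDKN1C and CDKN2B-AS1 stood at low FPKM in several columns, and without read totals their error is unknown.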
